A study of Rattus norvegicus with 21 samples.

Results

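The comparison described here is the change of mRNA levels after 2 h of FGF1 in NBTII-FGFR1 cells. NBTII is a rat bladder carcinoma line that grows as epithelial sheets, and NBTII-FGFR1 is the same line made to express FGF receptor 1. Its members were taken from the sample titles: 2 arrays of NBTII-FGFR1 cells after 2 h of FGF1 and 2 arrays of NBTII-FGFR1 cells at 0 h, 4 of the 21 arrays of the series. FGF1 was supplied at 20 ng/ml together with heparin. No array after 0 h lacks FGF1, so the growth factor, the heparin and the handling cannot be told apart. The other arrays are 7 of NBTII-FGFR1 cells at 0.5, 6, 24 and 48 h and 10 of the parental NBTII cells at 0 to 48 h, and NBTII-FGFR1 at 0.5 h, NBTII at 0.5 h and NBTII at 0 h have 1 array each. The labels do not say whether the 2 arrays of a group came from separate cultures, so the spread behind the p-values may be only technical. They also do not say whether the line is 1 clone, nor the species of the introduced receptor gene.

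FGF1 binds FGF receptors together with heparan sulfate, and the receptor kinases then switch on the RAS, RAF, MEK and ERK cascade. ERK phosphorylates factors already present in the cell, which turn on immediate-early genes such as Fos and Egr1 within minutes. Their protein products in turn drive a later set of genes, among them secreted proteases and growth factors, while feedback inhibitors such as the DUSP and Sprouty proteins damp the cascade. In NBTII cells FGF1 is known to scatter the epithelial sheets into single motile cells, a form of the epithelial to mesenchymal transition.

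The values are log2 signals made by the authors with RMA, on which a difference of 1 is a factor of 2. Differences are 2 h minus 0 h, given ± SE from a limma fit over all 21 arrays, and p-values were adjusted over all 15866 probe sets (Benjamini-Hochberg). A probe set or gene is said to have risen, fallen or been called where that adjusted p was under 0.05. A gene is represented by its brightest probe set. The median SE was 0.14. Array medians over the 21 arrays lay between 6.13 and 6.22, and the lower quartiles between 4.36 and 4.54. The table has no detection calls, so a difference that starts from a level below the lower quartile may understate the change. The number of arrays limits the precision.

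Both groups have an array that stands apart. Fgfr1 (1387498_a_at), the introduced receptor gene, read 7.58 and 6.67 at 2 h, against 5.92 in 0 h replicate 2 and only 3.57 in the library labelled 0 h replicate 1. Parental NBTII read 3.97 at 0 h. The library labelled 0 h replicate 1 therefore goes against its label at this probe set of the receptor, although over all probe sets the array closest to it was 0 h replicate 2 (r = 0.995) and its Fosl1 level of 9.01 was near the 9.28 of that replicate, against 7.04 in NBTII at 0 h. A second Fgfr1 probe set (1372447_at) read 4.53 and 4.64 at 2 h and 4.59 and 4.48 at 0 h. On the first, Fgfr1 at 2 h was higher by 2.38 ± 0.57 (adjusted p = 0.017) with it but by 0.75 without both doubted arrays (adjusted p = 0.46). Igfbp5, a secreted binding protein of insulin-like growth factors, split the 0 h arrays in the same way, with 4.65 and 5.49 at 2 h and 7.51 and 4.39 at 0 h, and was not called. A set of 34 line markers was also read, probe sets whose means differed by over log2 1 between the lines at 6, 24 and 48 h, without overlap. All 34 lay nearer NBTII in 0 h replicate 1. The same was true of NBTII at 0 h. In 0 h replicate 2 it was 21 of 34, in the 2 h arrays 17 and 19, and in the 6 h arrays 2 and 1. Because the markers were chosen at later times under FGF1, they do not settle the line of a 0 h array. The arrays of 2 h each correlated better with an NBTII array than with each other (r = 0.988), replicate 1 with that of 0.5 h (r = 0.990) and replicate 2 with replicate 2 of 2 h (r = 0.993). The second doubted array is 2 h replicate 1, whose closest array was of another time. A further difference runs between the time points: the 27 probe sets of the poly-A spikes averaged 5.33 to 5.72 in the 18 later arrays and 6.13 to 6.64 in the 3 arrays at 0 h, and the part of this difference in the results was not tested. A call is said to have held where the gene was also called, the same way, in each of the 4 fits that left out 1 of the 4 arrays compared.

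At 2 h, 836 probe sets (5.27%) had risen and 647 (4.08%) had fallen, 1483 in all (9.35% of 15866). In each of the 1483 the 2 arrays of 2 h lay on one side of both arrays of 0 h, which was also true of 48.9% of all probe sets. The risen probe sets moved further than the fallen ones. Their median difference was 0.87, against -0.59 for those that fell, and a difference over 2 was reached by 87 probe sets that rose and one under -2 by 4 that fell. By gene, 601 of 10411 had risen (5.77%) and 442 had fallen (4.25%), with a median of -0.06 over all genes. The call held for 402 probe sets (2.53%), of which 328 had risen (2.07%) and 74 had fallen (0.466%), and by gene for 238 that rose (2.29%) and 51 that fell (0.49%). The library labelled 0 h replicate 1 changed the count: without it 518 probe sets were called, 400 higher and 118 lower, and without both doubted arrays 686, 464 higher and 222 lower. Without 0 h replicate 2 it was 880. Of the genes named below whose calls held with each array left out in turn, Ier2, Lif, Tgif1, Rhob, Zfp36 and Hoxa5 were not called without both doubted arrays (adjusted p of 0.11, 0.11, 0.058, 0.14, 0.067 and 0.12). The split between higher and lower also depended on the setting, since a fit to only the 4 arrays compared called 232 higher and 27 lower.

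Several secreted proteases rose. Mmp13 (1388204_at), a collagenase, read 10.10 and 8.24 at 2 h, against 4.08 and 4.57 at 0 h. Both 2 h arrays were far above both 0 h arrays, and the difference of 4.85 ± 0.52 (limma, adjusted p = 4.7e-05) was the largest among the genes whose call held. Without both doubted arrays it was 3.67, behind Asprv1 (5.13), Mxd1 (4.60) and Nr4a3 (4.38) among others. Mmp3, the stromelysin that cleaves matrix proteins and activates other metalloproteinases, read 8.10 and 7.33 at 2 h and 3.57 and 3.79 at 0 h, a difference of 4.03 ± 0.44 (limma, adjusted p = 5.7e-05). Mmp9, a gelatinase, read 6.56 and 6.35 at 2 h, against 3.66 and 3.69 at 0 h (2.78 ± 0.29). At 0 h Mmp3 and Mmp9 were below the lower quartile, so these differences may be understated. Mmp10, a second stromelysin, gave a mixed picture, with 5.40 and 7.57 at 2 h and 4.20 and 4.09 at 0 h: it was called, but the call did not hold. Of the 21 metalloproteinases and inhibitors measured, 6 rose and 0 fell, and the same number rose without both doubted arrays. The list's median difference was 0.26. The other two that rose were Timp1, an inhibitor of metalloproteinases (1.56 ± 0.21), and Mmp14, the membrane-bound enzyme that activates Mmp2 (1.16 ± 0.21), whose adjusted p reached 0.054 with 1 array left out.

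Some genes of the plasminogen system rose too. Plaur (1387269_s_at), the urokinase receptor, read 10.51 and 11.35 at 2 h, against 6.91 and 7.22 at 0 h, and Plau, urokinase itself, read 10.77 and 10.64 at 2 h, against 8.14 and 8.17 at 0 h. The arrays of the 2 time points were well separated for both genes, by 3.87 ± 0.35 for Plaur (limma, adjusted p = 1.1e-05) and by 2.56 ± 0.25 for Plau (limma, adjusted p = 2.9e-05). A dimmer second probe set of Plaur (1371286_at) differed by 0.82 and was not called. Serpine2, an inhibitor of urokinase and thrombin, rose by 1.64 ± 0.21, and Plat, tissue plasminogen activator, by 1.80 ± 0.38. The call of Plat was lost with 1 array left out (adjusted p up to 0.069). In all, 4 of 15 genes of this list rose and 1 fell. The one that fell was Klk6, a secreted trypsin-like protease, which read 5.48 and 5.71 at 2 h and 7.69 and 7.89 at 0 h (-2.20 ± 0.32; limma, adjusted p = 5.8e-04).

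**Figure D1:**
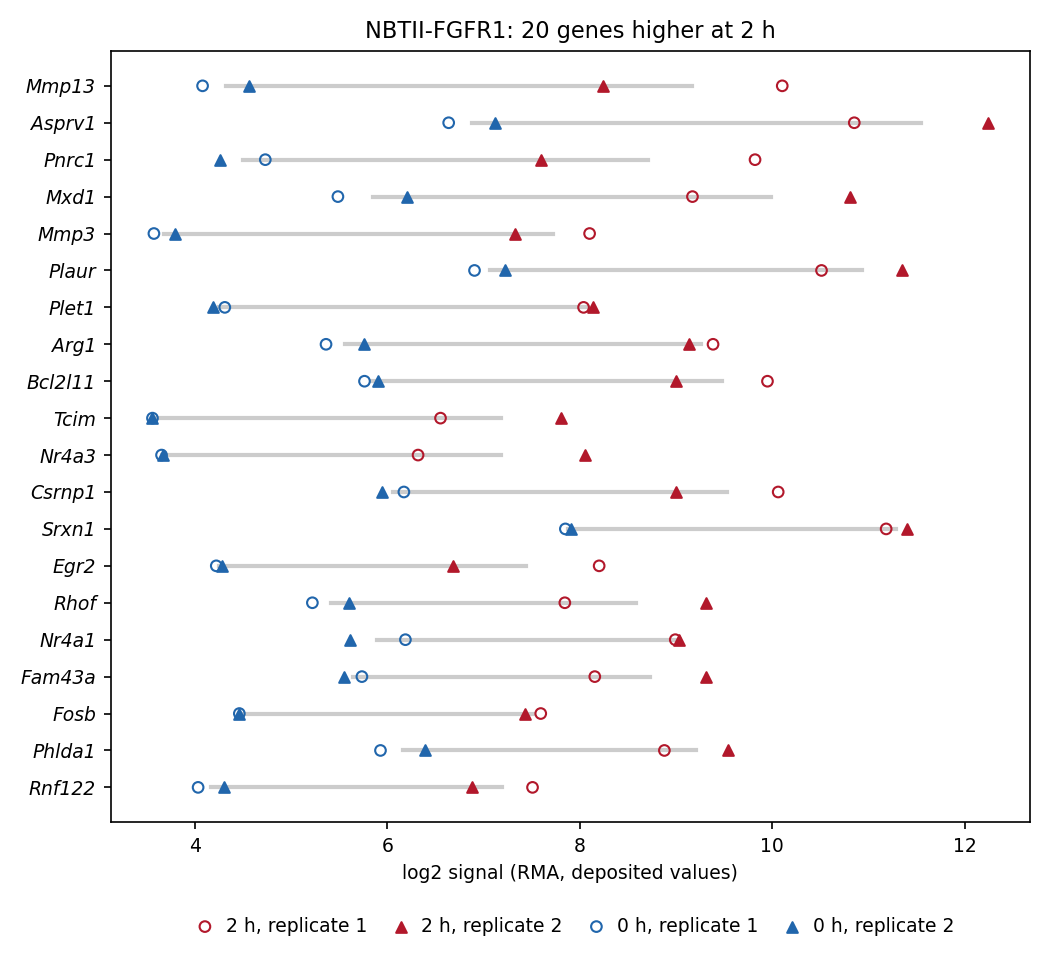
The log2 signal of each of the 4 arrays for the 20 genes with the largest rise among those whose call held, sorted by difference; open circles are replicate 1 and triangles replicate 2, the grey bar joins the group means. The 2 h arrays lie to the right of the 0 h arrays in all 20 genes, from Mmp13 (4.85) to Rnf122 (3.03), while the distance between the 2 h replicates is widest for Pnrc1.

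Promoter sequences of 5 of these genes are given because they carry known response elements of growth factor signalling, the AP-1 site bound by FOS and JUN dimers and the CArG box bound by serum response factor. Each runs from 150 bases before to 10 bases after the annotated start, 5′ to 3′ on the gene's strand, from RefSeq on GRCr8, with the matched motif in capitals. Mmp13 lies at chr8:12782679-12782838 (+ strand), Mmp3 at chr8:12925131-12925290 (+), Plaur at chr1:89181213-89181372 (+), Srxn1 at chr3:161064662-161064821 (+) and Egr2 at chr20:21054432-21054591 (- strand).
Mmp13: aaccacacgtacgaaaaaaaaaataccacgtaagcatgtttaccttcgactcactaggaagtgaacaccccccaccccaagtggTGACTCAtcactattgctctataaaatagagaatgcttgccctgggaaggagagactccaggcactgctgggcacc
Mmp3: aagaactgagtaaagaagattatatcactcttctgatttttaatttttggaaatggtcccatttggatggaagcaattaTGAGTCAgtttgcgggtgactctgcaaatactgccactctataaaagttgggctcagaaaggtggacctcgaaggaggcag
Plaur: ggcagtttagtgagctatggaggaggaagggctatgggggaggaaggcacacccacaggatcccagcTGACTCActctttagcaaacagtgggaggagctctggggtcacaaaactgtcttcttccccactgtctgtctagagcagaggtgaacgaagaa
Srxn1: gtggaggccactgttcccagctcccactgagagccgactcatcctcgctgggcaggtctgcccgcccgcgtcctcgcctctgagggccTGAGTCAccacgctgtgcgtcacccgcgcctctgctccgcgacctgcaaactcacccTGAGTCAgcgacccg
Egr2: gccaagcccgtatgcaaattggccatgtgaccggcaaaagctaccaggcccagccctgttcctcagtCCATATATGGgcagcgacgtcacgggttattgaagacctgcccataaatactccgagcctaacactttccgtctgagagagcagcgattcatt

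The AP-1 motif, TGANTCA (which reads the same on both strands), was matched at -66 to -60 from the start in Mmp13 (TGACTCA), at -71 to -65 in Mmp3 (TGAGTCA), at -83 to -77 in Plaur (TGACTCA) and at -62 to -56 in Srxn1 (TGAGTCA), where a further match overlaps the start. The CArG box of Egr2 (CCATATATGG) lay at -83 to -74. Of the 20 genes with the largest rise, 14 have a promoter of 250 bases before to 50 after the start in the RefSeq table, and 5 of those 14 held an AP-1 motif. Plet1 was the fifth. In all, 7 motifs were searched, on both strands. The antioxidant response element core TGACNNNGC, which can overlap an AP-1 match, was also found in 5 of the 14, and in 16.4% of promoters of genes that rose and 14.6% of array genes. The CArG box was found in 1 of the 14, in 2.42% of promoters of genes that rose and in 1.40% of array genes. A kappaB site was found in 1 of the 14, in 8.1% of promoters of genes that rose and in 4.8% of array genes. The CRE and the E-box were found in 0 of the 14. Among promoters of genes that rose they were in 4.4% and 7.9%, against 2.9% and 8.9% of array genes. The AP-1 motif was in 2 of 17 promoters of the 20 genes with the largest fall (Klk6 and Cyp3a9), and in 5.48% of the 8581 array genes with a promoter and 7.33% of all 27457 promoters. It was in 9.29% of the 495 promoters of genes that rose and in 4.29% of the 373 of genes that fell. The motif GCGNGGGCG, bound by EGR factors and searched on both strands, was found in 15.8% of promoters of genes that rose, 4.02% of those that fell and 9.89% of array genes. Of the 14 promoters of the largest rises, 3 held it. The motifs were picked after the values had been seen, promoters differ in base composition, and a match is no evidence that a factor was bound.

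Among transcription factor genes, part of the AP-1 family rose. Of 10 genes measured, 5 rose and 0 fell, with a median difference of 1.14, and 5 rose without both doubted arrays. Fosb read 7.59 and 7.43 at 2 h, against 4.46 and 4.46 at 0 h (3.05 ± 0.20; limma, adjusted p = 1.0e-06). Fosl1, which encodes FRA-1, read 11.23 and 11.66 at 2 h, against 9.01 and 9.28 at 0 h (2.30 ± 0.19; limma, adjusted p = 5.7e-06). Junb (1.98 ± 0.26) and Mafk, a small MAF protein (1.43 ± 0.17), also rose and held. Atf3, a stress-induced relative, was split between its arrays, with 9.74 and 7.34 at 2 h and 6.85 and 6.01 at 0 h, and its call did not hold. Fos itself was not called: it read 9.78 and 8.82 at 2 h and 9.52 and 9.03 at 0 h, levels that overlap. It had 11.09 in the 0.5 h array, 5.33 and 6.87 at 6 h, and 4.90 in parental NBTII at 0 h. The 2 arrays labelled 0 h thus already stood well above the parental level for this gene.

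EGR, NR4A and KLF factors and other immediate-early genes had the largest share of risen members among the 39 lists, with 14 of 20 risen and 0 fallen and a median difference of 1.16. Without both doubted arrays 10 of the 20 had risen, the same share as the 5 of 10 AP-1 subunits. Nr4a3, an orphan nuclear receptor, read 6.32 and 8.05 at 2 h, against 3.65 and 3.67 at 0 h, and its relative Nr4a1 read 8.99 and 9.03 at 2 h, against 6.19 and 5.61 at 0 h. The difference was 3.52 ± 0.42 for Nr4a3 and 3.11 ± 0.27 for Nr4a1, although a dimmer Nr4a3 probe set (1369217_at) differed by -0.01. Egr2 read 8.20 and 6.68 at 2 h, against 4.22 and 4.28 at 0 h (3.19 ± 0.41, and 0.80 on a second probe set, also called), and Csrnp1, a nuclear protein, rose by 3.47 ± 0.39. Ier3 (1.72 ± 0.22), Ier5 (1.55), Klf6 (1.34), Ier2 (1.10) and Klf4 (0.76) rose and held. Egr1 read 11.77 and 11.05 at 2 h and 9.79 and 9.63 at 0 h (1.70 ± 0.45, limma adjusted p = 0.030). Its call did not hold, and it was also lost without both doubted arrays, where the difference was 1.42.

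Of 13 feedback inhibitors of the ERK cascade, 6 rose and 0 fell (median 0.44), and 6 rose without both doubted arrays. Dusp1, a nuclear MAP kinase phosphatase, read 10.08 and 9.76 at 2 h and 7.35 and 7.07 at 0 h (2.71 ± 0.38). Errfi1, an inhibitor of the EGF receptor family, rose by 2.28 ± 0.31, and Spry2, a Sprouty inhibitor of receptor kinase signalling, read 7.56 and 7.77 at 2 h, against 6.07 and 6.30 at 0 h (1.47 ± 0.13; limma, adjusted p = 1.1e-05). Socs3, a cytokine signalling inhibitor, rose by 1.93 ± 0.31 and Dusp5 by 1.64, though the call of Dusp5 did not hold. Dusp6, the phosphatase of cytoplasmic ERK, was already bright, with 12.62 and 12.48 at 2 h and 11.39 and 11.82 at 0 h on its brightest probe set (1387024_at), a rise of 0.94 ± 0.14. Its probe sets disagree: 1377064_at was called in the other direction (-0.80), and 1382778_at was not called (0.38). Spry4 and Snai2 were not analysed here.

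Several ligands of the EGF receptor rose. Of 12 genes for EGF receptors and ligands, 4 rose and 1 fell. Hbegf read 9.47 and 10.58 at 2 h, against 7.47 and 7.38 at 0 h, Areg 12.09 and 12.83 at 2 h, against 10.25 and 10.64 at 0 h, and Ereg 8.45 and 9.91 at 2 h, against 6.44 and 6.92 at 0 h. These 3 ligands, which bind the EGF receptor after release from the membrane, rose by 2.60 ± 0.30, 2.02 ± 0.29 and 2.50 ± 0.39, and each call held. Tgfa, a further ligand, rose by only 0.49 ± 0.12, and the receptor gene Erbb4 fell by 0.53 from a level near the lower quartile, neither of which held. No FGF ligand gene was called, 0 of 7 in either direction by limma. With 5.77% of all genes risen and 4.25% fallen, 0 of 7 is near the share over all genes. The median level of this list was 4.40 and 4.66 at 2 h and 4.62 and 4.70 at 0 h. These levels are near the lower quartile, where a change can go unseen. Of 14 genes for FGF receptors and coreceptors, 3 rose: Fgfr1 as above, and the heparan sulfate proteoglycans Sdc1 (0.97 ± 0.11) and Sdc4 (0.86 ± 0.18), of which Sdc1 held and was the 1 called without both doubted arrays. Fgfr2, the FGF receptor whose epithelial splice form marks such cells, read 8.88 and 8.30 at 2 h and 8.40 and 8.52 at 0 h, with no call on any of its 5 probe sets. Among other secreted signals and their receptors, 9 of 37 rose and 0 fell. The ephrin Efna1 (1.52 ± 0.20), its receptor Epha2 (0.98 ± 0.15), the activin subunit Inhbb (1.19 ± 0.19), the angiogenic factor Vegfa (1.18 ± 0.19) and the cytokine Lif (1.03 ± 0.19) were among the calls that held.

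Chemokines and NF-kB targets had the highest list median, 1.20, with 12 of 19 risen and 0 fallen. Without both doubted arrays 7 of 19 had risen and the median was 0.87, below the AP-1 subunits (1.34) and the EGR, NR4A and KLF factors (1.04). Ptgs2, which encodes the inducible cyclooxygenase, read 10.98 and 10.16 at 2 h, against 8.50 and 8.15 at 0 h (2.24 ± 0.25; limma, adjusted p = 6.4e-05). Nfkbia, the inhibitor that NF-kB itself induces, read 10.71 and 9.61 at 2 h and 7.84 and 7.63 at 0 h (2.43 ± 0.36), and the membrane chemokine Cxcl16 rose by 1.55 ± 0.16. Icam1, a leukocyte adhesion molecule, read 10.44 and 8.39 at 2 h and 6.87 and 6.62 at 0 h, so replicate 1 was far above replicate 2. The neutrophil chemokine Cxcl1 read 11.27 and 7.22 at 2 h and 7.35 and 6.35 at 0 h, where the groups overlap, and it was not called. Of 12 leukocyte markers 0 rose and 1 fell (Cd14, -0.60 ± 0.17), and 0 of 10 endothelial and 0 of 14 fibroblast and smooth muscle markers were called by limma in either direction. Over all genes 5.77% rose and 4.25% fell, so counts this low in lists of this size are near the share over all genes.

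**Figure D2:**
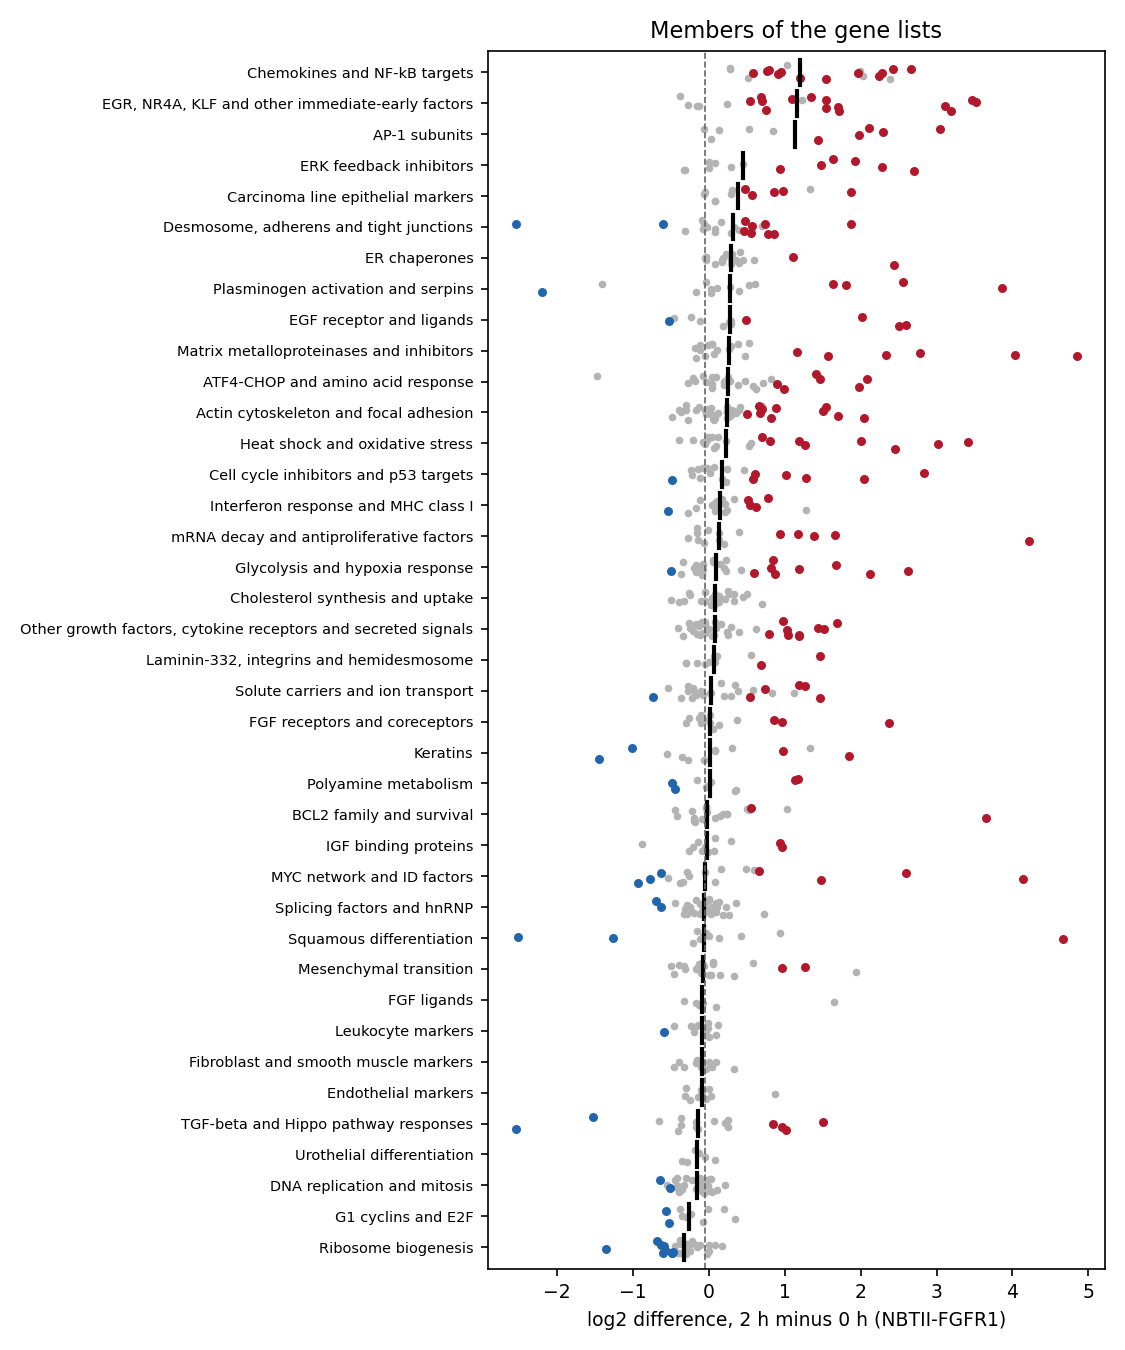
Each point is a gene of the named list, placed by its log2 difference of 2 h minus 0 h (x axis), with red for genes that rose, blue for genes that fell and grey for those not called; the black tick is the list median and the dashed line the median of all genes (-0.06). Chemokines and NF-kB targets (1.20), the EGR, NR4A and KLF factors (1.16) and the AP-1 subunits (1.14) lie at the top and ribosome biogenesis (-0.33) at the bottom.

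Antagonists of MYC rose while Myc itself was lower. Mxd1, which competes with MYC for its partner MAX, read 9.17 and 10.81 at 2 h, against 5.49 and 6.21 at 0 h (4.14 ± 0.51; limma, adjusted p = 1.6e-04). Its relatives Mxi1 (2.59 ± 0.28) and Mxd4 (1.47 ± 0.23) rose too, and all 3 calls held. Myc read 9.83 and 9.46 at 2 h and 10.32 and 10.24 at 0 h (-0.64 ± 0.14), a fall whose adjusted p reached 0.088 with 1 array left out. Hes1, a repressor downstream of Notch, fell by 0.77 and held, with 9.20 and 9.02 at 2 h and 9.82 and 9.96 at 0 h. Over the whole list of MYC network and ID factors, 4 of 17 rose and 3 fell.

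Of 35 genes of ribosome biogenesis, 9 fell and 0 rose. The list median of -0.33 compares with -0.06 for all genes, and 3 had fallen without both doubted arrays. Rrs1, a ribosome assembly factor, was the one member whose call held, with 8.55 and 8.36 at 2 h and 9.94 and 9.69 at 0 h (-1.36 ± 0.17; limma, adjusted p = 2.1e-04). Mrto4 (-0.61 ± 0.15), Imp3 (-0.58 ± 0.15), Nop58 (-0.49 ± 0.12) and the polymerase subunit Polr1c (-0.47 ± 0.12) moved by less, and their calls did not hold. Of the proliferation genes, 0 of 32 for DNA replication and mitosis rose and 2 fell (Ube2c, -0.65 ± 0.16, and Aurka, -0.51 ± 0.14). Over all genes 5.77% rose and 4.25% fell, so 2 fallen of 32 is near the share over all genes. Of 10 G1 cyclin and E2F genes, 0 rose and 2 fell (Cdc25a, -0.52 ± 0.14, and Ccne1, -0.56 ± 0.16). None of these 4 calls held, and without both doubted arrays 3 of the 32 and 0 of the 10 had fallen.

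Cell cycle inhibitors and p53 targets rose in 6 of 19 genes and fell in 1, and without both doubted arrays rose in 3 and fell in 0. Cdkn1a, which encodes the CDK inhibitor p21, read 8.87 and 9.79 at 2 h, against 7.35 and 7.22 at 0 h (2.05 ± 0.31; limma, adjusted p = 7.5e-04). Ccng2, a cyclin linked to arrest, read 9.82 and 10.49 at 2 h, against 7.69 and 6.95 at 0 h (2.83 ± 0.48), and Mdm2, the ubiquitin ligase of p53, rose by 1.28 ± 0.17. The CDK inhibitor Cdkn1b went the other way (-0.49 ± 0.12), without holding. Of 15 antiproliferative and mRNA decay factors, 5 rose and 0 fell, Tob1 by 1.66 ± 0.26, Zfp36 by 1.38 ± 0.22 and Btg1 by 1.18 ± 0.18, and 3 rose without both doubted arrays. The coactivator gene Pnrc1 belongs to the same list and read 9.82 and 7.60 at 2 h, against 4.73 and 4.26 at 0 h (4.21 ± 0.58), with wide spacing between its 2 h arrays and no difference on a dim second probe set (1387939_at, 0.01). Bcl2l11, which encodes the proapoptotic protein BIM, read 9.95 and 9.0 at 2 h, against 5.76 and 5.90 at 0 h (3.65 ± 0.29; limma, adjusted p = 5.7e-06). Its other probe sets differed by less, 1387338_s_at by 0.95, which was called, and 1370787_at by 0.30, which was not. It and the survival gene Mcl1 (0.55 ± 0.15) were the only members of 21 BCL2 family genes to be called. Both rose. Of all genes 5.77% rose and 4.25% fell, so a count this low in a list of this size is near the share over all genes. Mcl1 did not hold.

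Stress and metabolic genes moved in part. Srxn1, which repairs oxidized peroxiredoxins, read 11.18 and 11.40 at 2 h, against 7.85 and 7.91 at 0 h, and its difference of 3.41 ± 0.21 had one of the smallest adjusted p-values of the array (limma, adjusted p = 5.3e-07). Hmox1, the haem-degrading oxygenase, read 11.31 and 10.61 at 2 h, against 7.94 and 7.94 at 0 h (3.02 ± 0.27), and Txnrd1, thioredoxin reductase, 11.23 and 11.01 at 2 h, against 9.11 and 9.11 at 0 h (2.01 ± 0.17). With the chaperone Hspb8 (2.45 ± 0.19) and its partner Bag3 (1.27 ± 0.17) they were the 5 calls that held among 8 of 21 heat shock and oxidative stress genes that rose, and 5 rose without both doubted arrays. Of 26 glycolysis and hypoxia genes, 8 rose and 1 fell, and 4 rose without both doubted arrays: Ndrg1 rose by 2.62 ± 0.27, the glucose transporter Slc2a1 by 1.18 ± 0.16 and the peptide hormone gene Adm by 1.67 ± 0.25. Odc1, the rate-limiting enzyme of polyamine synthesis, rose by 1.18 ± 0.15, and so did Sat1, which acetylates polyamines for export (1.13 ± 0.21). The synthases Sms (-0.49 ± 0.12) and Srm (-0.45 ± 0.13) fell without holding. Of 27 genes of the ATF4 and CHOP response, 6 rose and 0 fell, and 2 rose without both doubted arrays. Of the 6, Cebpb (1.98 ± 0.26) held. Cholesterol synthesis and uptake genes were not called, 0 of 23 in either direction by limma. Since 5.77% of all genes rose and 4.25% fell, 0 of 23 is near the share over all genes.

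Of 12 epithelial markers of the line, 5 rose and 0 fell (median 0.39), where 5.77% of all genes rose and 4.25% fell, so 0 fallen of 12 is near the share over all genes. Without both doubted arrays 2 rose. Cdh1, which encodes E-cadherin, read 9.73 and 9.59 at 2 h and 9.11 and 8.50 at 0 h (0.86 ± 0.25), and Krt8 9.26 and 9.96 at 2 h and 8.87 and 8.39 at 0 h (0.98 ± 0.28). Neither call held, and each was lost in several of the 4 fits without 1 array. The differences in those 4 fits ran from 0.55 to 1.17 for Cdh1 and from 0.63 to 1.33 for Krt8. Krt5, the basal keratin, stayed near the top of the scale, with 12.93 and 12.86 at 2 h and 12.49 and 12.71 at 0 h, and was not called. Cldn4, a tight junction claudin, was the one whose rise held, at 10.21 and 9.61 at 2 h, against 8.0 and 8.08 at 0 h (1.87 ± 0.24). Of 22 genes of desmosomes, adherens and tight junctions, 8 rose and 2 fell, but without both doubted arrays 2 rose and 1 fell. Ctnnb1, whose product beta-catenin links cadherins to actin, was called in opposite directions by 2 of its 4 probe sets (0.51 and -0.50).

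Of 22 mesenchymal genes measured, 2 rose and 0 fell, shares near the 5.77% of all genes that rose and the 4.25% that fell, and the list median was -0.08. Fn1, fibronectin, read 9.95 and 10.28 at 2 h and 8.71 and 8.99 at 0 h (1.26 ± 0.27), a call lost with 1 array left out (adjusted p up to 0.092), and Fbn1, fibrillin, rose by 0.97 ± 0.16 from a level near the lower quartile. Vim, the mesenchymal intermediate filament gene, read 8.11 and 8.72 at 2 h and 5.41 and 7.55 at 0 h, so the 0 h arrays were split, and it was not called (1.94 ± 0.72). Snai1, a repressor of Cdh1, was not called either, at 5.13 and 5.24 at 2 h and 5.18 and 5.38 at 0 h. Genes of the actin cytoskeleton and focal adhesions rose in 10 of 43 cases with 0 fallen, and 5 rose without both doubted arrays. Cdc42ep3, an effector of CDC42, rose by 2.04 ± 0.28, Rhob by 1.70 ± 0.32 and Pdlim7 by 1.54 ± 0.27 (0.39 and not called on a second probe set). The laminin-332 chain gene Lama3 read 10.07 and 10.82 at 2 h, against 8.95 and 9.0 at 0 h (1.47 ± 0.23; limma, adjusted p = 8.7e-04).

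Other genes among the 20 largest rises have varied roles. Arg1, which encodes arginase, read 9.38 and 9.14 at 2 h, against 5.36 and 5.75 at 0 h (3.70 ± 0.30; limma, adjusted p = 5.7e-06). Plet1, a surface protein of epithelial progenitors in the mouse, read 8.04 and 8.14 at 2 h, against 4.31 and 4.18 at 0 h (3.84 ± 0.55), and its replicates lay close together at both times. Tcim (3.62 ± 0.31), Fam43a (3.09 ± 0.42) and Phlda1 (3.05 ± 0.42) were also among them, and Tcim started below the lower quartile of every array.

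Of 12 genes of squamous differentiation, 2 fell and 1 rose, the latter among the largest rises. Of all genes, 4.25% fell and 5.77% rose. Without both doubted arrays 0 of the 12 fell and 1 rose. Asprv1, an epidermal protease that processes filaggrin in the mouse, read 10.85 and 12.24 at 2 h, against 6.64 and 7.11 at 0 h (4.67 ± 0.40; limma, adjusted p = 7.8e-06). Krtdap read 6.13 and 6.52 at 2 h and 8.80 and 8.89 at 0 h (-2.52 ± 0.67), and Sbsn fell by 1.27, though neither call held. Krt10, the suprabasal keratin, read 5.68 and 6.24 at 2 h and 7.26 and 7.56 at 0 h (-1.45 ± 0.22; limma, adjusted p = 6.6e-04) and held. Of 12 keratins, 2 rose (Krt15, 1.84 ± 0.50, and Krt8) and 2 fell (Krt10 and Krt13, -1.02 ± 0.29), against 1 and 2 without both doubted arrays. The calls of Krt15 and Krt13 did not hold, and neither was called without both doubted arrays (adjusted p of 0.073 and 0.25).

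**Figure D3:**
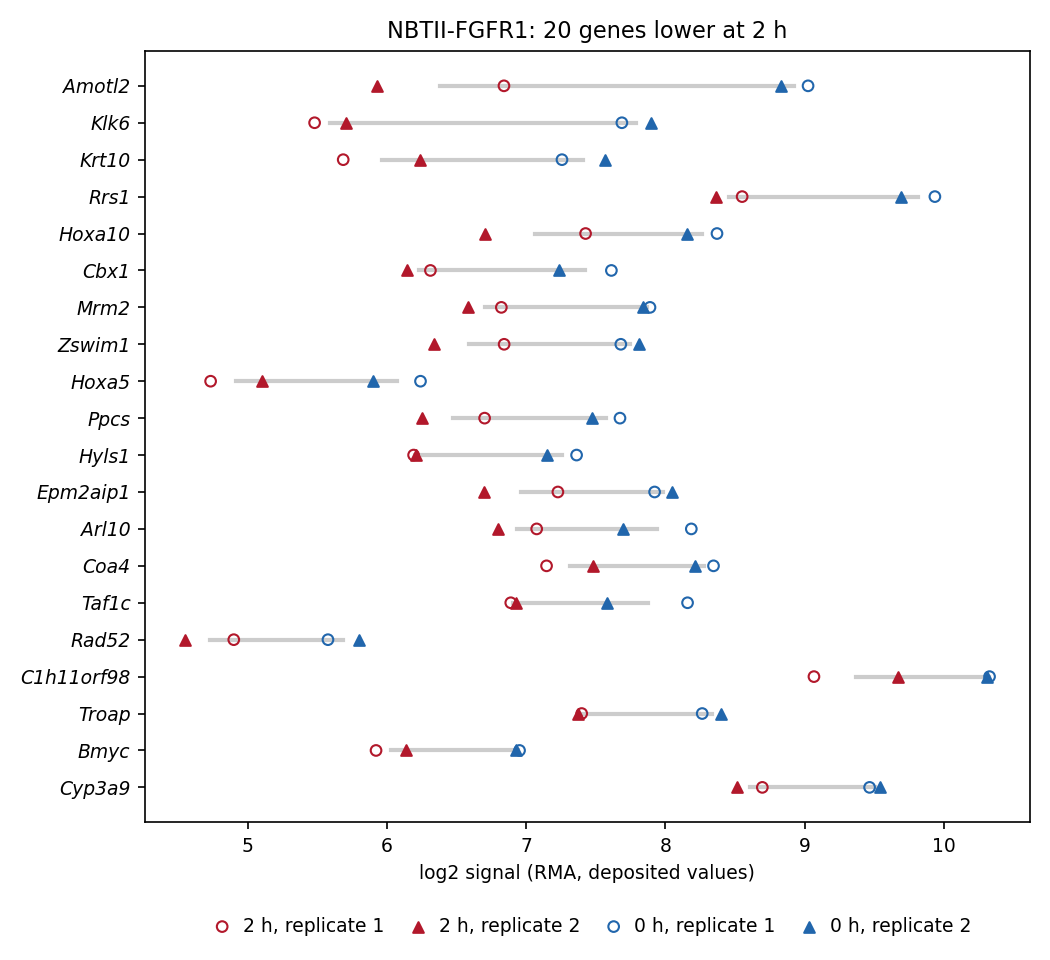
The log2 signal of each of the 4 arrays for the 20 genes with the largest fall among those whose call held; symbols as in the plot of the 20 genes that rose. The 2 h arrays lie to the left of the 0 h arrays in all 20 genes, from Amotl2 (-2.54) to Cyp3a9 (-0.90), and the differences are smaller than those of the rising genes.

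The largest fall belonged to Amotl2 (1389546_at), a junctional scaffold of the angiomotin family that restrains the Hippo effector YAP. It read 6.84 and 5.92 at 2 h, against 9.02 and 8.83 at 0 h, a difference of -2.54 ± 0.30 (limma, adjusted p = 9.7e-05). Ajuba, a LIM protein of junctions and Hippo signalling, fell unevenly, with 10.51 and 8.54 at 2 h and 10.91 and 11.19 at 0 h. Its 2 h replicate 1 lay close to the 0 h arrays. The difference of -1.53 ± 0.40 was -2.52 without that array, -0.54 without 2 h replicate 2 and -2.65 without both doubted arrays (adjusted p = 5.5e-05), and the call did not hold. A second probe set (1388230_at) was also lower (-1.89). In the same list of TGF-beta and Hippo responses, the SKI family repressor Skil (1.50 ± 0.22) and the corepressor Tgif1 (1.02 ± 0.17) rose and held, and Ccn1 and Ccn2, common targets of YAP, were not called (-0.17 and 0.07). Their levels on the 4 arrays, 3.98 to 4.42 for Ccn1 and 3.38 to 3.61 for Ccn2, were near or below the lower quartile, where a change can go unseen. The homeobox genes Hoxa10 (7.43 and 6.70 at 2 h, against 8.37 and 8.16 at 0 h) and Hoxa5 (4.73 and 5.10 at 2 h, against 6.24 and 5.90 at 0 h) fell by 1.20 and 1.15, and Cbx1, a heterochromatin protein, by 1.20. Other genes with lower levels that held were Taf1c, a subunit of the RNA polymerase I initiation factor (-0.96 ± 0.15), Troap, a protein needed for the mitotic spindle (-0.95 ± 0.11), and the recombination gene Rad52 (-0.96 ± 0.16).

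The levels at 0.5 and 6 h place the 2 h values in the course, although 0.5 h has 1 array, which is assumed to vary like the rest. Against 0.5 h, 267 probe sets were called (1.68%), 222 higher at 2 h (1.4%) and 45 lower (0.284%), but a fit to only these 3 arrays called 0 (limma, with 740 at an unadjusted p under 0.05), and leaving out 1 of the 2 h arrays gave 408 and 783. Against 6 h, 2695 were called (17.0%), 1521 higher at 2 h (9.59%) and 1174 lower (7.4%). That count was 1408 in all without 2 h replicate 1, 3613 without 2 h replicate 2, 1420 without 6 h replicate 2 and 265 with only those 4 arrays. Of the genes that rose from 0 h, 37 were also called higher at 2 h in both tests, against 0.5 h and against 6 h. Genes higher only in level are not in this count, and the test against 0.5 h rests on its 1 array. Srxn1 read 11.18 and 11.40 at 2 h, against 9.07 at 0.5 h and 8.77 and 9.64 at 6 h. Rnf122, a RING finger protein, read 7.51 and 6.88 at 2 h, against 5.69 at 0.5 h and 4.33 and 4.64 at 6 h. Nr4a3, at 4.68 at 0.5 h and 4.05 and 4.06 at 6 h, had the same shape, as did the ETS factors Ehf and Elf1 and the mRNA decay factor Rc3h1. For these 6 genes the excess over 0.5 h ran from 1.34 to 2.50 and that over 6 h from 1.33 to 3.13.

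Other genes were higher still at 6 h. Mmp3 read 4.21 at 0.5 h and 10.34 and 10.20 at 6 h, and Mmp9 read 4.0 at 0.5 h and 8.75 and 8.35 at 6 h. Both thus lay at 2 h between their 0.5 h and 6 h levels, and 2 h minus 6 h was -2.56 ± 0.44 for Mmp3 and -2.10 ± 0.29 for Mmp9 (limma, adjusted p of 0.0015 and 3.4e-04). Others were lower again at 6 h: Fosb read 7.52 at 0.5 h, near its 2 h level, and 4.58 and 4.98 at 6 h, and Dusp1 10.74 at 0.5 h and 6.75 and 7.89 at 6 h. For these, 2 h minus 6 h was 2.73 ± 0.20 and 2.60 ± 0.38 (limma, adjusted p of 3.8e-06 and 5.1e-04). Of the genes that fell, 12 were also called lower at 2 h in both tests, against 0.5 h and against 6 h. Ppcs, an enzyme of coenzyme A synthesis, read 6.70 and 6.25 at 2 h, against 7.41 at 0.5 h and 7.70 and 7.57 at 6 h. Mrm2, a mitochondrial rRNA methyltransferase, and Coa4, a cytochrome oxidase assembly factor, shared the dip, with Zswim1, Arl10 and C12h12orf76.

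**Figure D4:**
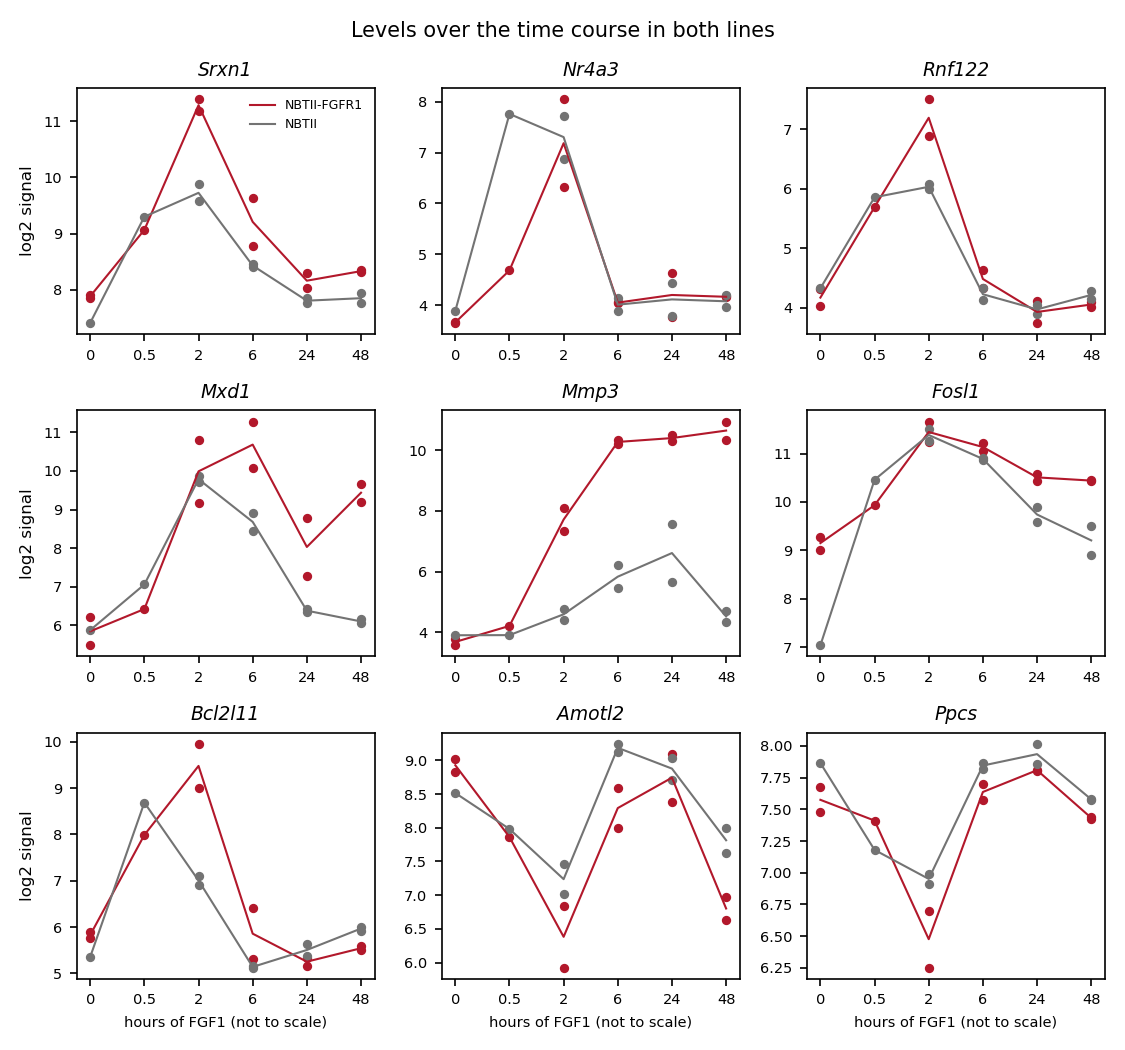
Log2 signal (y axis, each panel on its own range) of 9 genes at 0 to 48 h of FGF1 (x axis, not to scale) in NBTII-FGFR1 (red) and NBTII (grey); points are arrays and lines join the group means. Srxn1, Nr4a3 and Rnf122 peak at 2 h in NBTII-FGFR1, Mmp3 climbs on to 6 h in that line, and the group means of Amotl2 and Ppcs in that line are lowest at 2 h.

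The 2 arrays of 2 h differed from each other along this course. Among the 601 genes that rose, 25 were over 1 higher in replicate 1 than in replicate 2, 25 were over 1 higher in replicate 2, and 551 were within 1. Of those 551, 221 were higher at 0.5 h than on average at 6 h, and 330 were higher at 6 h. The genes higher in replicate 1 had a median level of 9.03 in that array and 7.60 in replicate 2, and stood at 8.43 at 0.5 h and 6.82 at 6 h. Of these 25, 21 were higher at 0.5 h than on average at 6 h, among them Atf3, Pnrc1, Icam1, the chemokine Ccl20 and Egr2. Mmp13 was one of the 4 that were higher at 6 h, with 6.55 at 0.5 h and 11.31 and 10.14 at 6 h. For the genes higher in replicate 2 the medians were 7.84 in replicate 1 and 8.92 in replicate 2, and 6.68 at 0.5 h and 9.13 at 6 h. Of these 25, 21 were higher at 6 h, among them Mmp10, the protease Prss22, Zyx and Mxd1, and 4 were higher at 0.5 h, among them Nr4a3, Tcim and Arc. The part that this plays in any single result was not tested, beyond the fits that leave out either array.

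Parental NBTII cells, compared with their own single 0 h array, had 466 probe sets called at 2 h (2.94%). The comparisons of the 2 lines share no arrays. Of the 836 probe sets that rose in NBTII-FGFR1, 756 had the same sign in NBTII and 216 (25.8%) were called higher there, which is 69.7% of the 310 called higher in NBTII (1.95% of all probe sets). Of the 647 that fell, 77 (11.9%) were called lower in NBTII, 49.4% of its 156 (0.983%). In neither direction was any of them called the opposite way, and over all 15866 probe sets the 2 differences had r = 0.631, as a description. The lines differ in the number of 0 h arrays, which also limits what NBTII could call.

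A direct test of the 2 h response of NBTII-FGFR1 minus that of NBTII called 0 probe sets (0.0%; limma, 1264 at an unadjusted p under 0.05, smallest adjusted p 0.0599). The median SE of this difference was 0.22. It called 140 without 2 h replicate 2 of NBTII-FGFR1, 30 without NBTII 2 h replicate 2, 6 without 2 h replicate 1 and 1 without both doubted arrays. Fosl1 had one of the 4 smallest adjusted p-values. In NBTII-FGFR1 it read 11.23 and 11.66 at 2 h and 9.01 and 9.28 at 0 h, and in NBTII 11.51 and 11.26 at 2 h and 7.04 at 0 h. The lines were close at 2 h and apart at 0 h, and the response of NBTII-FGFR1 minus that of NBTII was -2.05 ± 0.30. For Klk6, which in NBTII read 7.09 and 5.86 at 2 h and 5.68 at 0 h, the response of NBTII-FGFR1 minus that of NBTII was -3.00 ± 0.51 (limma, adjusted p = 0.074). For Mmp3, with 4.77 and 4.42 in NBTII at 2 h and 3.90 at 0 h, it was 3.34 ± 0.69 (limma, adjusted p = 0.14). For Bcl2l11 it was 2.00 ± 0.46 (limma, adjusted p = 0.23). None of these passed the threshold, so a difference between the lines at 2 h was not shown for any of them, which does not show that the lines respond alike. Mmp13 differed by 4.85 in NBTII-FGFR1 and 4.10 in NBTII, and Asprv1 by 4.67 in NBTII-FGFR1 and 4.43 in NBTII. The differences between the lines were 0.75 ± 0.82 and 0.24 ± 0.63 (limma, adjusted p of 0.87 and 0.95).

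**Figure D5:**
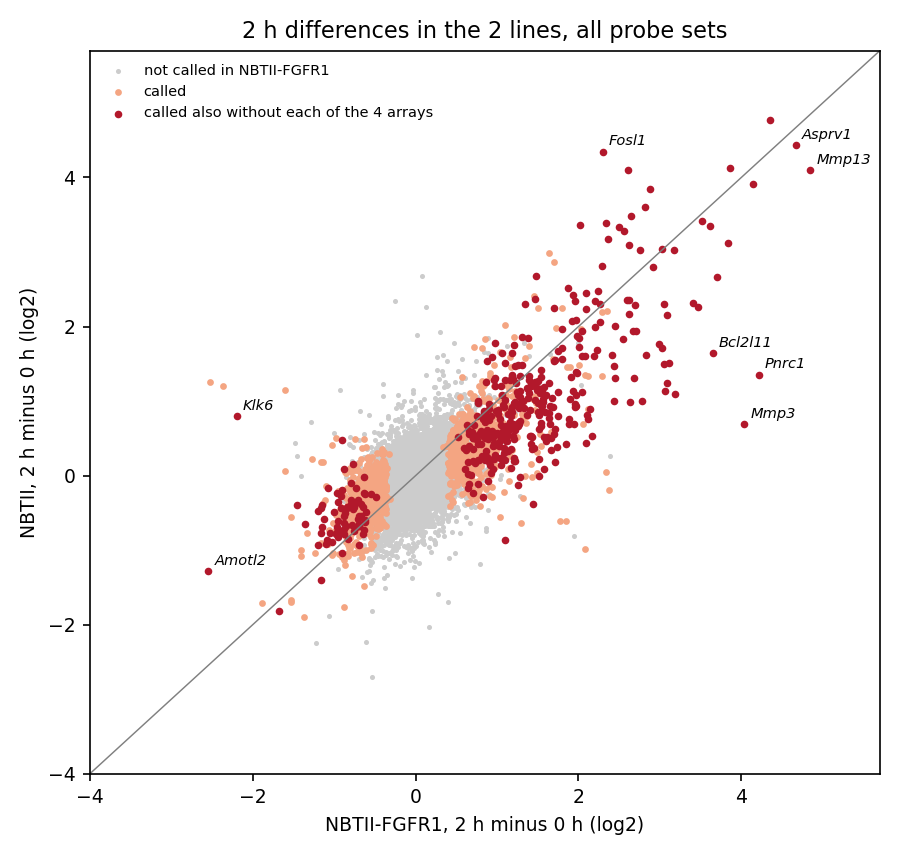
Log2 difference of 2 h minus 0 h for each of the 15866 probe sets in NBTII-FGFR1 (x axis) and in NBTII (y axis), with the line of equal values; dark red marks the calls in NBTII-FGFR1 that held without each of the 4 arrays. The held calls were chosen by their values in NBTII-FGFR1, which favours larger differences in that line. Their medians were 1.38 in NBTII-FGFR1 and 0.92 in NBTII where they rose, and -0.87 in NBTII-FGFR1 and -0.55 in NBTII where they fell. Probe sets called higher in NBTII had medians of 0.96 in NBTII-FGFR1 and 1.21 in NBTII. Those called lower in NBTII had -0.51 in NBTII-FGFR1 and -0.84 in NBTII. Mmp3, Pnrc1 and Bcl2l11 lie to the right of the line of equal values and Fosl1 to its left.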

How the data were processed

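Total RNA of 21 samples was hybridised to 1 Affymetrix rat expression array each. The deposited values are log2 signals from RMA, as named in the submitters' processing notes with no version, and the authors' values were used unchanged. Of 15923 probe sets, 57 controls were left out and 15866 were tested with no filter on low values. The annotation table gives 1 gene symbol to 12783 probe sets, several to 312 and none to 2771. Groups came from the sample titles, which name 2 NBTII-FGFR1 arrays at 0 h although the series text says that controls had no duplicate.

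A group-means model over the 12 groups was fitted in limma 3.58.1 (R 4.3.3) with eBayes (9 residual and 5.68 prior degrees of freedom), with Benjamini-Hochberg adjustment over 15866 probe sets at a threshold of 0.05. Contrasts were 2 h against 0 h, 0.5 h and 6 h in NBTII-FGFR1, 2 h against 0 h in NBTII, and the difference between the lines. On simulated data for 2 h against 0 h in NBTII-FGFR1, 85% of changes of log2 1 and 100% of changes of log2 2 were recovered over 15866 probe sets, and 4.15% of calls were false. For the difference between the lines, 53% and 95% were recovered. The simulated noise had the same spread in every group. The 2 h arrays of NBTII-FGFR1 had the lowest correlation of all replicate pairs (r = 0.988), so these shares may be too favourable for the comparisons with 2 h.

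The members, the 39 gene lists and the naming rule were chosen with earlier results of these data known. Named are the 20 largest rises and 20 largest falls among calls that held, up to 5 called members per list with the smallest p, 6 peaks and 6 troughs at 2 h, and genes fixed by name. Further list members, and Prss22, Cxcl1, Arc and Ctnnb1, were named after their values were seen. Alternatives were other sets of arrays, a replicate block, repeated quantile normalization, a filter on dim probe sets, another eBayes setting, array weights and each array left out. Same-numbered replicates were not taken as pairs, since a correlation of their deviations above 0.1 was not found in every pair of groups. It was -0.00 between 2 h and 0 h of NBTII-FGFR1, -0.086 between the 2 h groups of both lines and 0.33 between 2 h and 6 h of NBTII-FGFR1, and 15 of 36 pairs exceeded 0.1. Promoters were read from the RefSeq table (GRCr8) and figures drawn with matplotlib 3.10.9. Not every gene that the naming rule selects is described in the text.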

Additional observations from a re-analysis of the deposited data

How the results depend on the processing

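The count of calls for 2 h against 0 h in NBTII-FGFR1 was 1483. It was 259 with only the arrays compared, 968 with only the NBTII-FGFR1 arrays, 766 with array weights and 686 without both doubted arrays, and ran from 518 (without the library labelled 0 h replicate 1) to 1753 (without 2 h replicate 2) with 1 array left out. The share of calls that were higher was 56.4%, against 89.6% with only the arrays compared, 68.5% with array weights, 77.2% without the library labelled 0 h replicate 1 and 67.6% without both doubted arrays. A block by replicate number gave 1574. For the difference between the lines, with 0 calls, the block gave 13, eBayes with trend and robust 4, the fit without both doubted arrays 1, and the fits without 1 array 0 to 140. For 2 h against 0.5 h (267) the count was 156 with array weights, 0 with only the arrays compared, 247 with the block, and 408 to 783 with 1 array left out. For 2 h against 6 h (2695) it was 1053 with array weights, 265 with only the arrays compared, 2897 with the block, and 1408 to 3613 with 1 array left out. Fewer arrays and fewer degrees of freedom enter the fits to subsets; the cause of the other shifts was not tested.

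Of 166 named genes, 53 lost their call without both doubted arrays, 53 without the library labelled 0 h replicate 1, 81 with only the arrays compared, 35 with array weights and 1 with the replicate block. The differences that changed sign were of genes that were not called: Fgfr2 (-0.16 to 0.42 with 1 array left out, -0.23 without both doubted arrays), Snai1 (-0.20 to 0.0094 with 1 array left out), Fos (-0.46 to 0.50 with 1 array left out, -0.22 without 0 h replicate 2, -0.019 with quantile normalization repeated, -0.21 without both doubted arrays) and Igfbp5 (-2.44 to 0.68 with 1 array left out, 1.10 without both doubted arrays). Signal over background may limit genes that start below the lower quartile of the arrays.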
